A study of Mus musculus with 6 samples.

Results

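Lipolysis genes were examined in white adipose tissue of mice lacking KSR2, kinase suppressor of Ras 2, which holds RAF, MEK and ERK kinases together. The genes were 9 in number and were chosen by name: the lipases Pnpla2, Lipe and Mgll, the lipase cofactors Abhd5 and G0s2, and the receptors Adrb1, Adrb3, Adra2a and Hcar1. The platform annotation named single-gene probe sets for 6 of the 9, among 18193 genes in all. It listed none for Adrb1, Adrb3 or Adra2a, so the adrenergic receptors of the set were not analysed here. Arrays came from 3 KSR2-/- mice and 3 WT mice, all C57Bl6 females aged 6 months, with the RNA of 1 mouse on each array. Neither the depot nor the extent of the Ksr2 deletion is given in the labels, which name no Cre driver or floxed allele.

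Lipolysis releases fatty acids and glycerol from stored triglyceride in sequence. Pnpla2 encodes adipose triglyceride lipase, which makes diglyceride, Lipe encodes hormone-sensitive lipase, which makes monoglyceride, and Mgll encodes the lipase of monoglyceride. Catecholamines drive the process in fat through beta-adrenergic receptors, cyclic AMP and protein kinase A, while receptors coupled to the inhibitory G protein, among them the lactate receptor HCAR1, restrain it.

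The arrays showed several features that bear on these values. Median linear intensities were 22.4 to 24.2, and correlations between arrays, across genes, were 0.955 to 0.988. By their number in the labels the animals belong to a higher range, which holds mice 1 and 2 of each genotype, and a lower range, which holds mouse 3 of each. KSR2-/- mouse 3 correlated with WT mouse 3 at 0.988 and with KSR2-/- mice 1 and 2 at 0.970 and 0.977. RNA integrity, read as 3' less 5' signal of Gapdh control probes on the log2 scale, gave 0.47 to 1.46 in KSR2-/- mice and 0.07, 0.69 and 4.18 in WT mice 1 to 3. WT mouse 3, with 4.18, is the WT mouse of every difference given below for the lower-numbered pair. Ksr2 itself read 4.47, 4.28 and 4.26 in KSR2-/- mice, against 4.74, 4.04 and 4.47 in WT mice. That dim signal does not check the genotype labels. Adipoq, the adiponectin gene that defines adipocytes, read 12.70 to 13.40 in KSR2-/- mice and 13.46 to 13.58 in WT mice, so the labelled tissue carried its defining marker on every array.

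In KSR2-/- fat none of the 6 genes passed the test for a difference from WT, and Hcar1 stood furthest from it. Values are log2 of RMA intensity, a background-corrected and normalized array brightness, so that 1 unit is a doubling. Hcar1 averaged 6.41 ± 0.55 in KSR2-/- mice and 7.67 ± 0.36 in WT mice (SD, n = 3 each), 2.40-fold lower with no overlap. Pnpla2 averaged 10.86 ± 0.76 in KSR2-/- mice and 11.65 ± 0.07 in WT mice, with KSR2-/- mice 1 and 2 lower by more than 1 log2 and KSR2-/- mouse 3 at the WT level. Lipe was likewise lowest in KSR2-/- mice 1 and 2 but was highest of all mice in KSR2-/- mouse 3, and Mgll, Abhd5 and G0s2 overlapped between the genotypes. Passing limma at an adjusted p under 0.05 were 0 of the 6 genes, where the background over all genes was 0.0055%, or 1 of 18193. At an unadjusted p under 0.05 there was 1 of the 6, Hcar1, where the background was 12.1%. The groups did not overlap in 1 of the 6, Hcar1, against 16.3% of all genes in either direction and 8.56% with KSR2-/- lower. With all mice those shares are of the size that the background gives. Without KSR2-/- mouse 3 an unadjusted p under 0.05 was reached by 3 of the 6, Pnpla2, Lipe and Hcar1, where the background was 16.2%. Pnpla2 and Hcar1 reached it with arrays centred on the median gene, with a mean trend in limma or with the animal number range as a block, where the backgrounds were 13.6%, 11.9% and 13.0% in that order. The median difference of the 6 genes was −0.31 log2, beside −0.04 over all genes.

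The sequences before the start sites of 3 of the genes are shown because Hcar1 had the largest difference and because Pnpla2 and Lipe split between the animal number ranges. Each is the 250 bases ahead of an annotated start, from RefSeq on GRCm38.p6, read 5′ to 3′ on the strand of the gene, and capitals mark a match to a motif searched. All 6 genes had a window in the RefSeq table, 8 windows in all because Lipe and Mgll have 2 annotated starts each.
Hcar1 (chr5:123880004-123880253, minus strand): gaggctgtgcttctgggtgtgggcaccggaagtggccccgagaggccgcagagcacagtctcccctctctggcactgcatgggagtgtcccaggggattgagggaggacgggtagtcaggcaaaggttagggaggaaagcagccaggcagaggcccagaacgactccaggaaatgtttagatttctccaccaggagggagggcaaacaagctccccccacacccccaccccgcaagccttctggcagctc
Pnpla2 (chr7:141454938-141455187, plus strand): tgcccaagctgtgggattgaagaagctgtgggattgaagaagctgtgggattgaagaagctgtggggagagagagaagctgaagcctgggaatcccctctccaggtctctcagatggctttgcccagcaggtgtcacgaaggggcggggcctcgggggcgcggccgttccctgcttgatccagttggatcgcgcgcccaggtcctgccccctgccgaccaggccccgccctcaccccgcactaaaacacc
Lipe (chr7:25395988-25396237, minus strand): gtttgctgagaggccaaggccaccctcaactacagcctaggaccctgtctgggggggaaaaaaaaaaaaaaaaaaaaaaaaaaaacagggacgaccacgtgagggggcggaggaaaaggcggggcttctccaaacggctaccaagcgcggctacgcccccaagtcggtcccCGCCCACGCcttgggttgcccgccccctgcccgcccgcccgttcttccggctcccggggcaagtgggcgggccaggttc

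The motifs searched, on both strands, were those of transcription factors known to act on lipase genes, with a pair of general promoter motifs. The FOXO motif GTAAACA was in 2 of the 8 windows, 1 of Lipe and 1 of Mgll, and in 3.17% of the 32851 windows of all genes. The EGR1 motif GCGTGGGCG, marked in capitals as its reverse complement in the Lipe window shown, was in 1 of the 8 and in 0.536% of all windows. The nuclear receptor site AGGTCA was in 1 of the 8, that of Abhd5, and in 14.0% of all windows. The joint PPAR and RXR element, that site repeated after a spacer base, was in 0 of the 8 and in 0.0335% of all windows, and the LXR and RXR element, the site repeated with a wider spacer, was in 0 of the 8 and in 0.0152%. The part TGACG of the cyclic AMP element was in 2 of the 8, those of Abhd5 and G0s2, and in 17.8% of all windows. The whole element TGACGTCA was in 0 of the 8 and in 1.55%, and the C/EBP motif TTGCNNAA in 0 of the 8 and in 9.56%. The promoter motifs TATAAA and CCAAT were each in 0 of the 8, and in 12.4% and 33.8% of all windows. The Hcar1 and Pnpla2 windows thus held none of the letters searched, which says nothing of a factor's action on either gene. GC content was 62.4% in the Hcar1 window, 63.2% in that of Pnpla2 and 62.8% in that of Lipe, against a median of 52.4% over all windows.

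The lipases come first in the pathway. Pnpla2 read 10.45, 10.38 and 11.73 log2 in KSR2-/- mice 1 to 3, against 11.64, 11.59 and 11.72 in WT mice 1 to 3. KSR2-/- mice 1 and 2 lay below all WT mice and KSR2-/- mouse 3 lay just above them, so the groups overlapped. The WT mice differed from each other by little, and most of the spread came from the knockout group. The difference was −0.79 log2 (SE 0.36, 95% interval −1.64 to 0.05, limma adjusted p = 0.444). Within the higher-numbered animals it was −1.20, and within the lower-numbered pair it was 0.02. Without KSR2-/- mouse 3 it was −1.23, with a limma adjusted p of 0.0159. Without that mouse 816 genes passed, or 4.49% of all. With any other mouse left out, Pnpla2 did not pass. A dimmer probe set of Pnpla2 gave −0.20 (SE 0.22, limma adjusted p = 0.845), and read 4.60, 4.67 and 5.14 in KSR2-/- mice, against 4.66, 5.08 and 5.27 in WT mice. Both probe sets thus had their highest KSR2-/- value in mouse 3.

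Lipe read 9.81, 10.07 and 11.74 in KSR2-/- mice, against 10.93, 10.84 and 10.47 in WT mice. KSR2-/- mice 1 and 2 were the lowest of the 6 mice and KSR2-/- mouse 3 the highest. The difference over all mice was −0.21 (SE 0.48, 95% interval −1.35 to 0.94, limma adjusted p = 0.925), which leaves room for a lower or a higher level of about 1 log2. Within the higher-numbered animals the difference was −0.94, and within the lower-numbered pair it was 1.26. The other Lipe probe set read 2.45 to 2.57 in KSR2-/- mice and 2.76 to 3.03 in WT mice, near the lowest signals of the arrays (−0.37, SE 0.14, limma adjusted p = 0.442).

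Mgll read 11.19, 11.66 and 12.29 in KSR2-/- mice, against 11.46, 11.61 and 11.95 in WT mice. The knockout values lay on both sides of the WT values. The difference was 0.04 (SE 0.30, 95% interval −0.65 to 0.74, limma adjusted p = 0.983). Its 4 probe sets gave differences of −0.07 to 0.09. Mgll therefore had the smallest difference of the 6 genes, with an interval that spans a change of more than 0.6 log2 either way.

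**Figure D1:**
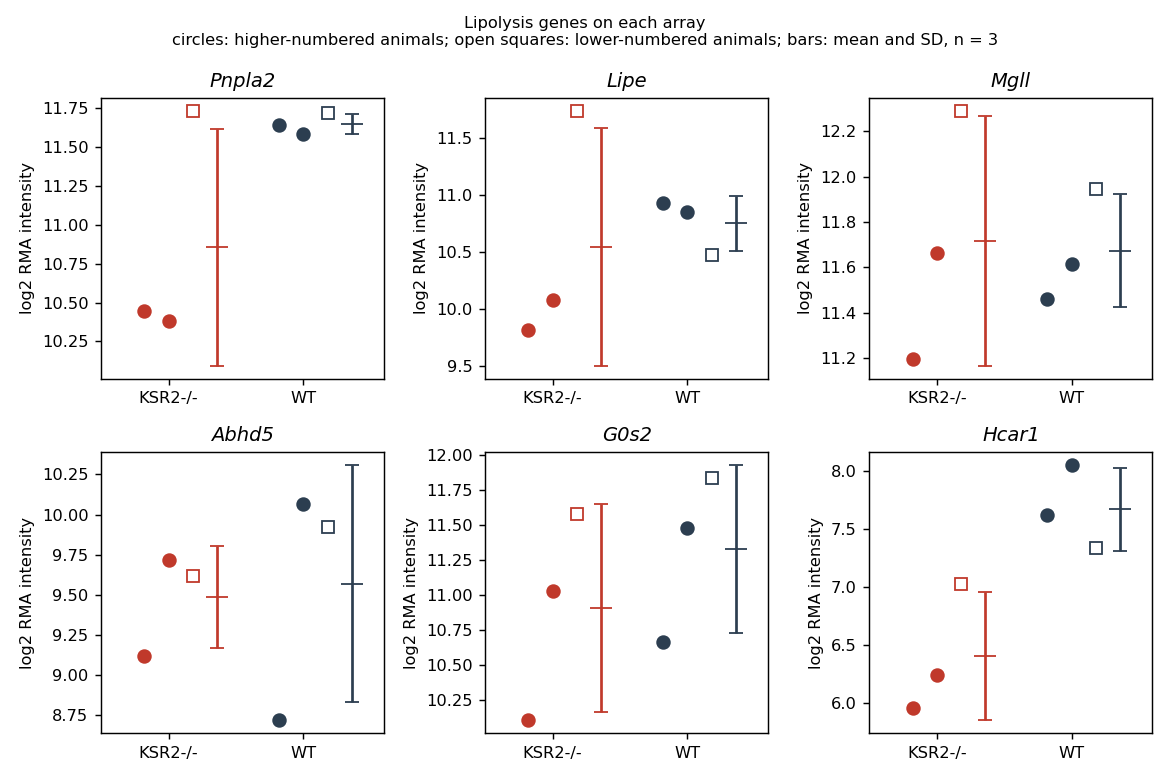
Log2 RMA intensity of each of the 6 lipolysis genes (vertical axis) on each array, with KSR2-/- mice left and WT mice right. Circles are higher-numbered animals, open squares lower-numbered animals, and bars the mean and SD (n = 3). In Pnpla2 and Lipe the KSR2-/- square stands at 11.73 and 11.74, above the KSR2-/- circles at 9.81 to 10.45, and only in Hcar1 do the groups not overlap.

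The activator and the inhibitor of adipose triglyceride lipase were measured as well. Abhd5, also called CGI-58, binds the lipase and raises its activity once protein kinase A has acted on the droplet coat. It read 9.12, 9.72 and 9.62 in KSR2-/- mice, against 8.72, 10.07 and 9.92 in WT mice. The lowest and the highest value were both from WT mice. The difference was −0.08 (SE 0.38, 95% interval −0.97 to 0.80, limma adjusted p = 0.967). The other probe sets of Abhd5 gave −0.68 (SE 0.35, limma adjusted p = 0.581) and, for the dimmest, −0.29 (SE 0.20, limma adjusted p = 0.715). The probe set at −0.68 read 8.23, 8.27 and 9.26 in KSR2-/- mice, against 8.97, 9.79 and 9.03 in WT mice. There KSR2-/- mice 1 and 2 lay below all WT mice, as in Pnpla2 and Lipe, and KSR2-/- mouse 3 lay among the WT mice. The brightest probe set of Abhd5 did not have that arrangement.

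G0s2 encodes a small protein that binds adipose triglyceride lipase and inhibits it. It read 10.11, 11.03 and 11.57 in KSR2-/- mice, against 10.67, 11.48 and 11.84 in WT mice. KSR2-/- mouse 1 was the lowest and WT mouse 3 the highest of the 6, and the groups overlapped. The difference was −0.42 (SE 0.44, 95% interval −1.45 to 0.61, limma adjusted p = 0.781). It was −0.50 in the higher-numbered animals and −0.26 in the lower-numbered pair.

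Differences between the lipase and its partners on the same array show whether they differed by unequal amounts. G0s2 minus Pnpla2 was −0.34, 0.65 and −0.16 log2 in KSR2-/- mice, against −0.98, −0.11 and 0.12 in WT mice, with means of 0.05 ± 0.52 and −0.32 ± 0.58 (SD, n = 3 each). Abhd5 minus Pnpla2 was −1.33, −0.67 and −2.12 in KSR2-/- mice, against −2.92, −1.52 and −1.79 in WT mice, with means of −1.37 ± 0.73 and −2.08 ± 0.74 (SD, n = 3 each). Both contrasts overlapped between the genotypes, and no test was made of them. The absolute values carry no meaning because the probes differ in brightness.

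Hcar1 was the 1 receptor of the set that could be measured, by a single probe set. It encodes a receptor for lactate on adipocytes that lowers cyclic AMP and so restrains lipolysis. Hcar1 read 5.96, 6.24 and 7.03 in KSR2-/- mice, against 7.62, 8.06 and 7.34 in WT mice. All KSR2-/- mice lay below all WT mice, and mouse 3 of each genotype stood nearest to the other genotype. The difference was −1.26 log2 (SE 0.32, 95% interval −2.02 to −0.51, unadjusted p = 0.00523 and adjusted p = 0.248 by limma). The interval is not adjusted for the number of genes tested. Within the higher-numbered animals the difference was −1.74 and within the lower-numbered pair it was −0.31. Without KSR2-/- mouse 3 it was −1.57, with a limma adjusted p of 0.0284, and with any other mouse left out it did not pass.

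Hcar1 lies on chromosome 5, as does Ksr2, with 92 protein-coding genes between them in the GRCm38.p6 annotation. Of these, 84 were measured and 7, or 8.3%, had an unadjusted p under 0.05 by limma, beside 12.1% of all genes. A share over so many genes cannot show whether the position of Hcar1 on the chromosome of Ksr2 bears on its value, which was not tested. Hcar2, which encodes the receptor for nicotinic acid and the ketone body beta-hydroxybutyrate, is the next gene to Hcar1. Hcar2 averaged 6.69 in KSR2-/- mice and 7.16 in WT mice (−0.47, SE 0.22, limma adjusted p = 0.457). It read 6.36, 6.79 and 6.91 in KSR2-/- mice, against 7.21, 7.41 and 6.88 in WT mice, so the groups overlapped at mouse 3.

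**Figure D2:**
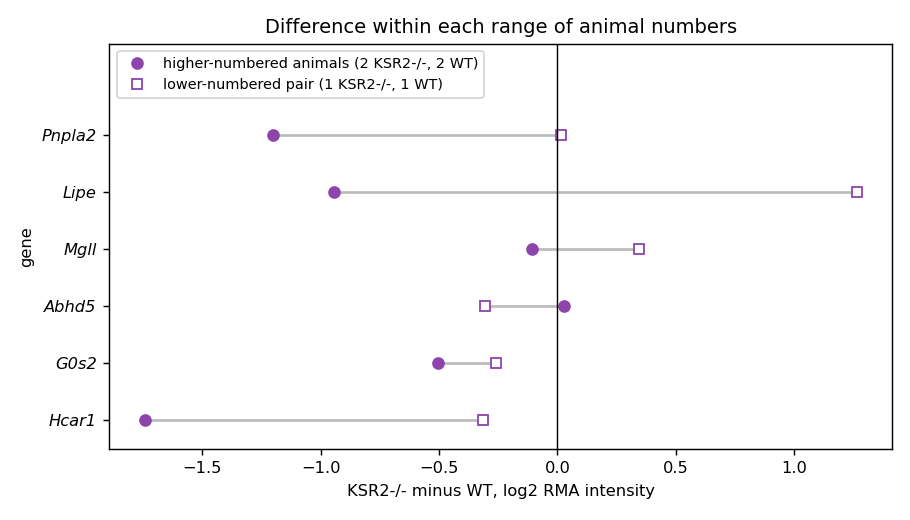
KSR2-/- minus WT difference in log2 RMA intensity (horizontal axis) for each lipolysis gene, within the higher-numbered animals (circles, 2 mice of each genotype) and the lower-numbered pair (open squares, 1 mouse of each genotype). Lipe stands at −0.94 and 1.26, on opposite sides of 0, and Hcar1 at −1.74 and −0.31, below 0 in both. The WT mouse of the pair is WT mouse 3, which had the highest Gapdh difference, 4.18.

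Marker genes of adipocytes and of other cells varied over the same arrays. The summed linear intensity of 7 measured adipocyte markers of 9 listed was 35403, 41191 and 52538 in KSR2-/- mice, against 43525, 50908 and 51917 in WT mice. KSR2-/- mouse 3, in which Pnpla2, Lipe and Mgll were highest, also had the highest adipocyte sum. By gene the adipocyte list was split, with 3 higher and 4 lower in KSR2-/- mice. An unadjusted p under 0.05 was reached by 4 of the 7, with 0 past limma. Over all genes that share was 12.1% in either direction, and the marker counts below stand beside it too. Lep was higher, at 1.45, and Adipoq, Retn and Slc2a4 were lower, at −0.51, −1.23 and −1.40. For 8 of 8 macrophage markers the sum was 21701, 19485 and 8909 in KSR2-/- mice, against 7931, 8229 and 8560 in WT mice. By mean all 8 were higher in KSR2-/- mice, 4 of them at an unadjusted p under 0.05 and 0 past limma over all genes. KSR2-/- mice 1 and 2, which had the lowest Pnpla2, Lipe and Hcar1, thus had the highest macrophage sums. In the lower-numbered pair Adgre1, Mrc1 and Cd14 were lower, at −0.04, −0.31 and −0.60. Cd68, Csf1r, Itgam, Lyz2 and Fcgr1 were higher there, Csf1r by only 0.001. Brown or beige adipocyte markers, 5 of 5, summed to 332, 485 and 768 in KSR2-/- mice, against 1178, 2683 and 1745 in WT mice, with no overlap. Of the 5, with a median difference of −1.64, 3 were lower at an unadjusted p under 0.05, Cidea, Ppargc1a and Cox8b, with 0 past limma. Ucp1 and Dio2 differed by only −0.07 each (limma adjusted p = 0.992 and 0.958), and in both the groups overlapped. B cell markers, 4 of 5 measured, summed to 4322, 6966 and 6941 in KSR2-/- mice, against 2274, 3092 and 3524 in WT mice, and red blood cell markers, 2 of 3 measured, to 201, 247 and 206 in KSR2-/- mice, against 88, 180 and 158 in WT mice. Neither of these sums overlapped, where 16.3% of all single genes did not overlap and no such share was found for sums. Within the B cell list Ighm was the 1 gene at an unadjusted p under 0.05. In the red blood cell list Hba-a1 read 2.91 to 3.13 log2, near the lowest signals of the arrays, and differed by −0.07. That sum was therefore nearly all Alas2, which differed by 0.72. The T cell, endothelial and stromal progenitor sums overlapped between the genotypes. Mesothelial markers, 5 of 5, summed to 614, 742 and 2709 in KSR2-/- mice and to 805, 832 and 1314 in WT mice. Mammary epithelial markers summed to 150, 220 and 920 in KSR2-/- mice and to 161, 225 and 1681 in WT mice, and skeletal muscle markers to 265, 267 and 1116 in KSR2-/- mice and to 195, 374 and 1326 in WT mice, so both were highest in the lower-numbered animals. RMA values have no zero, and the lowest macrophage marker value was 3.77 log2. The part of these cell types in the values of the lipolysis genes, or of the pathway genes named below, was not tested. In whole tissue, fewer adipocytes and less of a transcript in each adipocyte cannot be told apart.

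Next to the 6 genes stood 9 lists of other genes of the pathway, 78 entries of which 68 were measured. Passing limma over all genes were 0 of the 68. At an unadjusted p under 0.05 there were 9 higher and 7 lower, beside backgrounds of 6.71% and 5.38% of all genes, and the median difference of the 68 was 0.04. By value 36 of the 68 were higher and 32 lower, beside 8080 higher and 10113 lower of all 18193 genes. The counts of single lists below stand beside the same backgrounds. The droplet coat gene Plin1 had no single-gene probe set listed.

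Among 9 measured receptors that act on lipolysis, 2 were higher and 7 lower by value, and 1 had an unadjusted p under 0.05. That gene, Ffar4, named here after its value was seen, encodes a receptor for long-chain fatty acids. It read 5.62, 6.60 and 7.70 in KSR2-/- mice, against 7.46, 8.28 and 7.87 in WT mice (−1.23, SE 0.50, limma adjusted p = 0.401). The groups overlapped, and KSR2-/- mouse 3 again stood with the WT mice.

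Of 13 G protein and adenylyl cyclase genes, 1 had an unadjusted p under 0.05. Adcy9, an adenylyl cyclase that makes cyclic AMP, averaged 7.42 ± 0.12 in KSR2-/- mice and 7.06 ± 0.11 in WT mice (SD, n = 3 each), a difference of 0.37 (SE 0.15, limma adjusted p = 0.407). Gnas, which encodes the stimulatory G protein subunit downstream of beta-adrenergic receptors, differed by −0.20 (SE 0.20, limma adjusted p = 0.759).

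Of 10 genes for protein kinase A and the phosphodiesterase that opposes it, 3 had an unadjusted p under 0.05. Pde3b, the phosphodiesterase through which insulin lowers cyclic AMP in adipocytes, read 10.36, 10.73 and 10.83 in KSR2-/- mice, against 11.42, 11.64 and 11.54 in WT mice. Every KSR2-/- mouse lay below every WT mouse, and the difference of −0.89 (SE 0.18, limma adjusted p = 0.197) was −0.98 within the higher-numbered animals and −0.71 within the lower-numbered pair. Pkia, an inhibitor of the kinase, read 8.02, 8.32 and 8.85 in KSR2-/- mice, against 6.93, 7.56 and 7.79 in WT mice (0.97, SE 0.30, limma adjusted p = 0.296). The groups did not overlap, and both of its probe sets were near 1 log2 higher, at 0.97 and 1.00. Pkib, a related inhibitor named here after its value was seen, read 5.67, 6.20 and 3.44 in KSR2-/- mice, against 3.21, 2.73 and 3.42 in WT mice, so its higher values were those of the mice with the high macrophage sums.

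Genes that end a receptor's signal were higher by value in 6 of 6 measured, with 2 at an unadjusted p under 0.05. Among them Grk3, Grk5 and Grk6 differed by only 0.23, 0.09 and 0.04. In the lower-numbered pair Grk3, Rgs2 and Arrb2 were lower, at −0.22, −0.44 and −0.03, and Grk5, Grk6 and Arrb1 were higher. Arrb1, which encodes a beta-arrestin that uncouples and internalises receptors, averaged 8.33 ± 0.07 in KSR2-/- mice and 7.78 ± 0.42 in WT mice (SD, n = 3 each), a difference of 0.55 (SE 0.23, limma adjusted p = 0.411). The lower-numbered pair differed by 0.01, and the groups just failed to overlap, with the lowest KSR2-/- mouse at 8.26 and the highest WT mouse at 8.25. Arrb2, named here after its value was seen, read 7.93, 9.10 and 7.60 in KSR2-/- mice, against 6.40, 7.32 and 7.63 in WT mice (1.09, SE 0.46, limma adjusted p = 0.413).

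The enzymes that break down catecholamines differed in opposite directions. Maob, monoamine oxidase B, read 7.86, 8.12 and 8.95 in KSR2-/- mice, against 9.64, 10.14 and 9.60 in WT mice, 2.80-fold lower. Its difference was −1.48 (SE 0.31, limma adjusted p = 0.210). It was −1.90 in the higher-numbered animals and −0.66 in the lower-numbered pair. Maoa, monoamine oxidase A, read 9.32, 9.34 and 9.28 in KSR2-/- mice, against 7.73, 8.60 and 8.77 in WT mice, 1.93-fold higher. Its difference was 0.95 (SE 0.28, limma adjusted p = 0.278), and its other probe set gave 1.18. In Maoa the 3 knockout mice were nearly equal, unlike their macrophage sums, and the part of macrophages in its values was not tested. Th and Slc6a2, the genes for catecholamine synthesis and neuronal reuptake, differed by 0.05 (SE 0.17, limma adjusted p = 0.958) and −0.02 (SE 0.24, limma adjusted p = 0.989). Both were dim, Th at 3.33 to 3.70 and Slc6a2 at 4.36 to 5.19, below the median gene level of 5.96. Such dim values cannot show that synthesis or reuptake was unchanged.

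**Figure D3:**
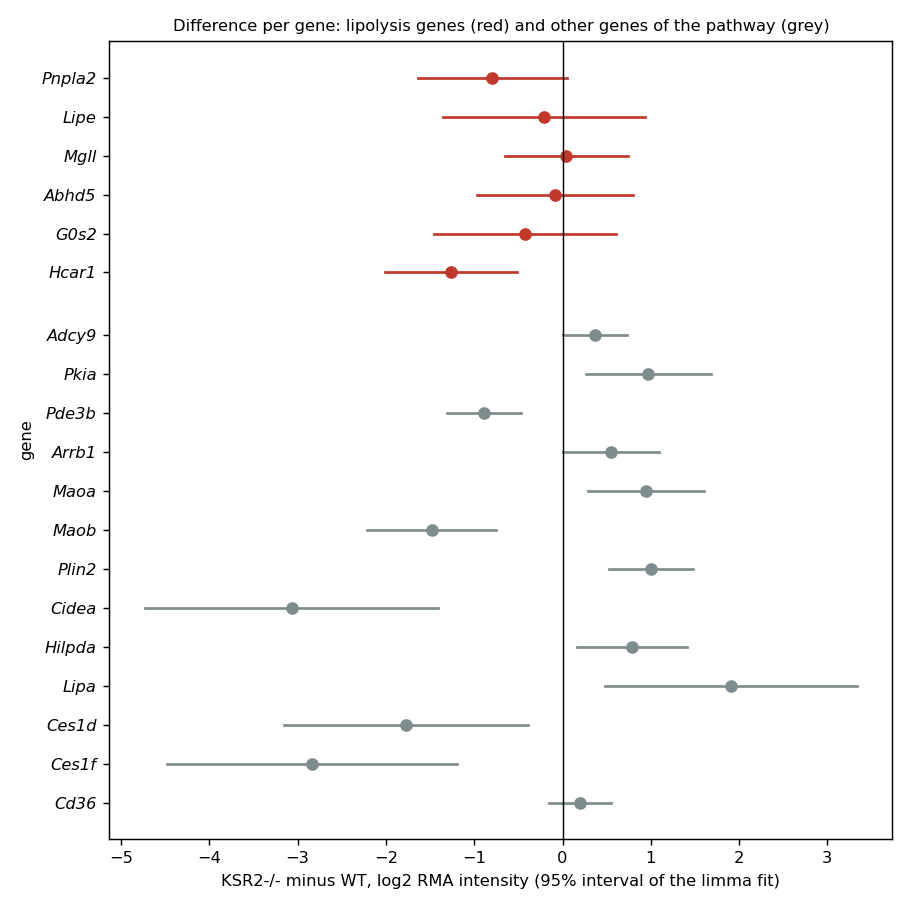
KSR2-/- minus WT difference in log2 RMA intensity (horizontal axis) with its 95% interval from the limma fit, not adjusted for multiple tests, for the 6 lipolysis genes (red) and 13 other genes of the pathway (grey). Among the lipolysis genes the interval of Hcar1, −2.02 to −0.51, is the 1 that leaves out 0, and none of the genes drawn passed the adjusted threshold.

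Of 6 measured droplet proteins, 2 were higher and 1 lower at an unadjusted p under 0.05. Cidea, which enlarges lipid droplets and is abundant in brown fat, read 4.45, 4.93 and 7.23 in KSR2-/- mice, against 8.48, 9.21 and 8.11 in WT mice, 8.39-fold lower (−3.07, SE 0.70, limma adjusted p = 0.229). Plin2, a droplet coat protein, read 12.71, 12.71 and 12.23 in KSR2-/- mice, against 11.46, 11.78 and 11.41 in WT mice (1.00, SE 0.20, limma adjusted p = 0.197). Hilpda, a hypoxia-induced inhibitor of adipose triglyceride lipase, read 6.99, 7.73 and 7.06 in KSR2-/- mice, against 6.11, 6.72 and 6.61 in WT mice (0.78, SE 0.26, limma adjusted p = 0.317). The groups did not overlap in these 3 genes, which was a condition for naming them, and in 16.3% of all genes. Hilpda stood higher by value than in WT. G0s2, the other inhibitor of the same lipase, overlapped with WT. It was not picked by that condition, so the overlap of Hilpda and G0s2 cannot be compared.

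Of 8 other lipid hydrolases, 7 were lower by value. An unadjusted p under 0.05 was reached by 3 of them and by the 1 higher gene. Ces1f, a carboxylesterase, read 6.25, 7.89 and 9.27 in KSR2-/- mice, against 10.21, 11.05 and 10.66 in WT mice, 7.14-fold lower (−2.83, SE 0.69, limma adjusted p = 0.246). Ces1d, a related carboxylesterase also known as triglyceride hydrolase, read 9.17, 10.87 and 11.56 in KSR2-/- mice, against 11.78, 12.53 and 12.60 in WT mice, 3.41-fold lower (−1.77, SE 0.58, limma adjusted p = 0.314). All 3 of its probe sets were lower, the smallest difference being −1.35, and probes of closely related carboxylesterase genes can read each other's transcripts. Without KSR2-/- mouse 1, which was lowest in both genes, the difference was −2.06 for Ces1f and −1.09 for Ces1d. Lipa, the acid lipase of the lysosome, read 11.46, 11.43 and 9.13 in KSR2-/- mice, against 8.61, 8.67 and 9.02 in WT mice (1.91, SE 0.60, limma adjusted p = 0.303). KSR2-/- mice 1 and 2 were higher by more than 2 log2 than every WT mouse and KSR2-/- mouse 3 by 0.11 than WT mouse 3, the arrangement of the macrophage sums. Lpl, the lipase of circulating triglyceride, differed by −0.01 (SE 0.14, limma adjusted p = 0.987).

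The carriers of lipolysis products showed no gene at an unadjusted p under 0.05 among 5 measured. The fatty acid transporter gene Cd36 averaged 12.66 ± 0.09 in KSR2-/- mice and 12.46 ± 0.11 in WT mice (SD, n = 3 each), a difference of 0.20 (SE 0.15, limma adjusted p = 0.683). Among 6 transcription factors known to act on lipase genes there was none either. Pparg, the nuclear receptor that drives adipocyte genes, Pnpla2 and Hcar1 among them, differed by −0.80 (SE 0.40, limma adjusted p = 0.491). Foxo1, which raises Pnpla2 in fasted fat, differed by −0.33 (SE 0.34, limma adjusted p = 0.780), and Egr1, which represses it, by 0.58 (SE 0.35, limma adjusted p = 0.585).

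Leaving out KSR2-/- mouse 3 brought 8 of the 68 pathway genes past limma, where 4.49% of all genes passed. Lower were Pde3b at −0.98 (adjusted p = 0.0489), Maob at −1.80 (adjusted p = 0.0142), Cidea at −3.92 (adjusted p = 0.00542) and Ces1f at −3.57 (adjusted p = 0.0178). Higher were Plin2 by 1.16 (adjusted p = 0.0304), Lipa by 2.68 (adjusted p = 0.00351), Pkib by 2.82 (adjusted p = 0.00695) and the cyclase gene Adcy7 by 2.14 (adjusted p = 0.00746), the last also named after its value was seen. With any other mouse left out, 0 of the 68 passed.

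**Figure D4:**
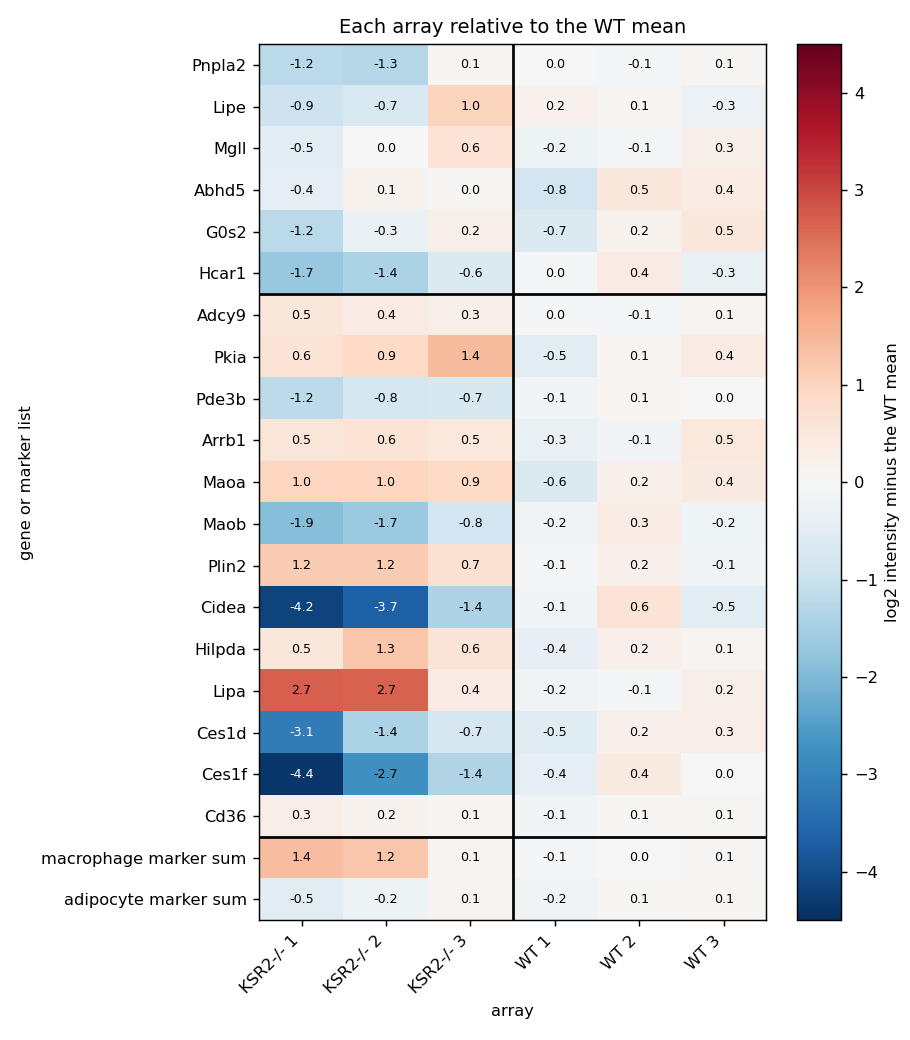
Log2 RMA intensity of each array minus the mean of the 3 WT arrays, by colour and number, for 6 lipolysis genes, 13 other pathway genes and the summed macrophage and adipocyte markers, with KSR2-/- arrays left of the line and WT arrays right. Lipa is high in KSR2-/- mice 1 and 2 together with the macrophage sum. On all 3 KSR2-/- arrays each of the 13 pathway genes, Lipa included, lies on the same side of the WT mean. Their groups do not overlap, as the naming rule asked of all but Pde3b.

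The 6 genes differed among themselves in how they ran over the arrays. With each gene centred on its own mean over the 6 arrays, the root mean square difference was smallest between Mgll and G0s2, at 0.35 log2, and largest between Abhd5 and Hcar1, at 0.78. Pnpla2 ran closest to Hcar1, at 0.38, and to Lipe, at 0.39. By the same measure over 6 arrays and all other genes, the genes nearest to Hcar1 were Bcat2 at 0.06, Nap1l3 at 0.06 and Echs1 at 0.09. Nearest to Pnpla2 were Pdk2 at 0.06, Sstr4 at 0.11 and Sdr39u1 at 0.12, and nearest to Lipe were Gpihbp1 at 0.16, Il17rc at 0.17 and Ehd2 at 0.19. For Mgll the nearest was Zbtb8b (0.07), for Abhd5 Ddx20 (0.06) and for G0s2 Pink1 (0.06). Among so many genes a close match over 6 arrays is a description of these arrays.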

How the data were processed

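RNA of white adipose tissue was measured on 1 Affymetrix array per mouse. The intensity values were made by the authors with RMA, per the submitters' processing notes, which give no version, and were deposited on a linear scale, as the values show (lowest 2.96). RMA normalizes the arrays together, and no centring was found. Here log2 was taken without a pseudocount. The table held 45101 probe sets, of which 64 were controls, 34945 had 1 gene symbol, 932 had several and 9160 had none listed. Symbols were updated to RefSeq GRCm38.p6 through gene identifiers (34741 matched). Each gene was read from its brightest single-gene probe set over the 6 arrays.

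The test of KSR2-/- against WT was that of limma 3.58.1 (R 4.3.3) over all 18193 genes (lmFit, eBayes, two-sided, Benjamini-Hochberg, threshold 0.05), or over all probe sets for values of further probe sets. The median standard error was 0.22 log2, and the number of arrays limits precision. The procedure was tested on simulated data. The genes, lists and alternatives were chosen with earlier results of these data known. Beside the 6 lipolysis genes, the text names per list up to 3 genes of smallest p that did not overlap between groups and reached the median gene level (5.96 log2) in a group, plus Pde3b, and other genes chosen for context or after their values were seen. Contrasts with Adrb3 were not made.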

Additional observations from a re-analysis of the deposited data

Results flagged for a closer look

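Lipe differed by −0.942 log2 between KSR2-/- and WT within the higher-numbered animals and by 1.26 within the lower-numbered pair, each mouse of a range moving the same way and the ranges opposite ways. Pnpla2 likewise differed by −1.20 within the higher-numbered animals and by 0.017 within the lower-numbered pair, where the mice were all but equal. The difference between the ranges was not tested, because the lower range holds 1 mouse of each genotype. The WT mouse of that range, WT mouse 3, had a Gapdh difference of 4.18, against 0.07 to 1.46 on the other arrays. The part of RNA integrity in the split between the ranges was not tested. No test for single outlying values was made in groups of 3 mice, and each mouse was left out in turn instead.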

How the results depend on the processing

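The labels give no shared replicate numbers, so single mice were not paired, and the animal number range served as the block. Over 16 alternatives, of which 6 left out 1 mouse, the genes past limma over all genes numbered 12 with genes above the median mean, 0 with every probe set, 2 with repeated quantile normalization, 16 with centred arrays, 10 with a trend, 0 with 16 added to the intensities, 0 with the animal number range as a block and 6 with the Gapdh difference as a covariate. They numbered 0 to 816 with 1 mouse left out, against 1 with all mice. Of the 6 lipolysis genes 0 passed in every alternative that kept all mice, and 0 to 2 with 1 mouse left out. The 2 were Pnpla2 and Hcar1, without KSR2-/- mouse 3. At an unadjusted p under 0.05 there were 2 of the 6 with centred arrays, a trend or the block, 3 without KSR2-/- mouse 3 and 1 in the other alternatives. Pathway genes past limma likewise numbered 0 to 8, against 0 with all mice and 16 at an unadjusted p under 0.05. Hcar1 ran from −1.57 to −1.04 and Pnpla2 from −1.23 to −0.50 over all alternatives, G0s2 from −0.76 to −0.03, and none of these changed sign. Abhd5 turned to 0.061 with the Gapdh covariate and ran from −0.51 to 0.16 with 1 mouse left out, Lipe from −0.80 to 0.16 and Mgll from −0.25 to 0.30, all without passing, and the cause was not tested. No pathway gene named by rule changed sign. Their groups did not overlap, as the rule asked of all but Pde3b, so leaving out 1 mouse could not have changed a sign.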
